A study of Mus musculus with 8 samples.

Results

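Solute carriers are the largest group of membrane transporters, and the genes described here are the solute carrier (Slc) genes expressed in the blood and lymphatic endothelium of a mouse melanoma. Members were chosen as gene symbols of Slc followed by a digit that reached 10 CPM or more, summed over all cells of either sort, with Slc2a1 and Slc27a3 left out. CPM is the number of unique molecular identifiers (UMIs) of a gene per 1000000 UMIs of the cells summed. Of 373 such symbols among 28692 genes, 115 were members (30.8%). A further 82 lay between 1 and 10 CPM, 101 had at least 1 UMI and lay below 1 CPM, and 73 had no UMI in either sort. Just inside the limit were Slc25a35, Slc27a1, Slc27a4 and Slc36a4, at 10.2 to 10.8 CPM in the higher sort, and just outside were Slc25a28, Slc25a22, Slc38a9 and Slc39a8, at 9.30 to 9.70 CPM.

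Cells came from tumours grown out of MT-ret melanoma fragments placed on the flank of 10 C57BL/6N mice, all carrying the same tumour and no further treatment in the labels. Cells of blood endothelium (BEC) and of lymphatic endothelium (LEC) were sorted from the tumour tissue and profiled with droplet 3′ libraries, in which 1 UMI stands for 1 captured transcript whatever the length of the gene. The labels give 4 libraries per sort, but cell names in the matrix carry the sort and no library, so each sort was 1 pooled sample and no difference below has a replicate check. Endothelium without a tumour was not analysed here, and all values are of tumour vessels of a pool of mice.

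Solute carriers move amino acids, sugars, vitamins, nucleosides, metals and ions across the plasma membrane, and exchange metabolites across the membranes of mitochondria, the Golgi apparatus and lysosomes. Endothelial cells use them both to feed themselves and to pass nutrients between the blood or lymph and the tissue. Most are exchangers or ride on a sodium or proton gradient, so their direction of transport follows the gradients and not the transcript level.

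Unless pigmented cells are named, all values below are from cells with fewer than 20 UMIs of the pigment genes Dct, Tyrp1, Pmel and Tyr, which set melanoma cells apart. Such cells numbered 3206 among BEC, where 70451974 UMIs were summed and the median cell had 19312 (range 6968 to 99171), and 4128 among LEC, where 51518922 were summed and the median cell had 10594.5 (range 5288 to 49024). The labels held against their defining markers, with blood endothelial markers at 24835 CPM in BEC and 2470 in LEC, and lymphatic markers at 195 CPM in BEC and 32952 in LEC. Both sorts held a few clusters of other cells: 29 BEC cells were in a cluster with lymphatic markers and 101 in one with mural markers, 108 LEC cells were in a cluster with blood endothelial markers and 95 in one led by C4b and Chl1. Of the cell barcodes, 34 occurred in both sorts. Melanocytic markers summed to 26.2 CPM in BEC and 144 in LEC, fibroblast markers to 22.9 and 210, and mural markers to 151 and 44.5. Of the fibroblast sums, Dcn alone made 7.38 CPM in BEC and 185 in LEC, while Col1a1 was at 4.09 and 4.62 CPM. Values in own-type cells alone (3076 BEC, 3925 LEC) are given beside the results they touch. All intervals (95%) speak of counting error alone, and a single UMI amounted to 0.0142 CPM among BEC and 0.0194 among LEC.

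Promoter sequences are shown for the members that the account turns on: Slc16a3, which was highest in one subset of each sort, Slc45a3 and Slc38a4, the most lymphatic of the members, and Slc24a5, a melanosomal carrier with UMIs in endothelial cells. Each run is the stretch before the first start site listed in RefSeq (build GRCm38.p6), 5′ to 3′ on the strand of the gene, without bases in an annotated exon of the gene. Capitals mark the hypoxia response core, searched as ACGTG or GCGTG on either strand, and in Slc24a5 the E-box CATGTG on either strand, letters known from the promoters of pigment genes. The Slc16a3 stretch is chr11:120948817-120949052 (plus strand), the Slc45a3 stretch chr1:131962665-131962914 (plus), the Slc38a4 stretch chr15:97055957-97056206 (minus) and the Slc24a5 stretch chr2:125067877-125068123 (plus). The Slc16a3 stretch lies within the span that the gene annotation gives Slc16a3, 120948480 to 120960868 on chromosome 11, since that annotation has an earlier start.
Slc16a3: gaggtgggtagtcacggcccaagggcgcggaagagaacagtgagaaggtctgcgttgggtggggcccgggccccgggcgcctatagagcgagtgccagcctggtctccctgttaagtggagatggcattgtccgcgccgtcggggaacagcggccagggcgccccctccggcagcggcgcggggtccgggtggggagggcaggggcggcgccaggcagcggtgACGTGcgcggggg
Slc45a3: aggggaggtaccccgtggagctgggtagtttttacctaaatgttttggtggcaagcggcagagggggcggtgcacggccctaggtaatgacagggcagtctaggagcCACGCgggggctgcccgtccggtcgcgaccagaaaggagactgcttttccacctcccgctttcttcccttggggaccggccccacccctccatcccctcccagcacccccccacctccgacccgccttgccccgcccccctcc
Slc38a4: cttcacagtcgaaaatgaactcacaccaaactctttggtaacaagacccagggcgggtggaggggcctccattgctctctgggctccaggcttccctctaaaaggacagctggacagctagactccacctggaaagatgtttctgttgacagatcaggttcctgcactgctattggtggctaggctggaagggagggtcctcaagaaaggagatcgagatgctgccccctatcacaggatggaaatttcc
Slc24a5: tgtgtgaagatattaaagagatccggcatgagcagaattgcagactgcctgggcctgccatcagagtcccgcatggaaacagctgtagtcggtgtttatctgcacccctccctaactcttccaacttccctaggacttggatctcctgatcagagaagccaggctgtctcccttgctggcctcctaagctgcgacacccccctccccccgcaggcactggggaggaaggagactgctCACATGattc

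In the 250 bases before the start, Slc16a3 held 2 hypoxia cores, 27 and 14 bases before it, of which the second lies among the 14 bases that an annotated exon covers and is not shown. Slc45a3 held 1, at 143 bases before the start, and Slc38a4 held none, which says only that these letters are not in this window. The E-box of Slc24a5 began 13 bases before its start. Of the 115 members, 90 matched a RefSeq promoter, and 50 of them (55.6%) held at least 1 hypoxia core, against 38.6% of all 27025 genes with a promoter. The E-box CATGTG was in 7 member promoters (7.78%) and in 12.2% of all. Matches on opposite strands can share bases, since ACGTG and its complement overlap in CACGTG. Member promoters had a median GC content of 61.0%, against 52.0% over all genes, and GC content alters how often such letters occur. The 3′ libraries do not show which start site is used, and Slc45a3 and Slc38a4 have 2 and 3 starts in the table.

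The sorts differed in a limited set of carriers. On the scale of CPM + 1, 15 members were called for BEC, being 2-fold or more above LEC, 15 were called for LEC, and 85 lay within 2-fold. Over all 8307 genes at the same level, 8.51% passed the same limit for BEC and 10.9% for LEC, which left 80.6% within 2-fold. Counts by class and by list below stand against these same shares. The median log2 ratio of LEC over BEC was -0.04 over the members and 0.11 over all genes. Members were chosen on their level in either sort, so a member that passed in 1 sort alone tended to differ by construction, and nothing is read from these shares. Of the 83 members at 10 CPM or more in both sorts, 8 were called for BEC, 2 for LEC, at a median of -0.17, while 5.62% and 5.0% of the 6799 genes at that level were. In own-type cells all 30 calls held, and Slc30a1, Slc12a4 and Slc44a1 joined those higher in BEC.

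**Figure D1:**
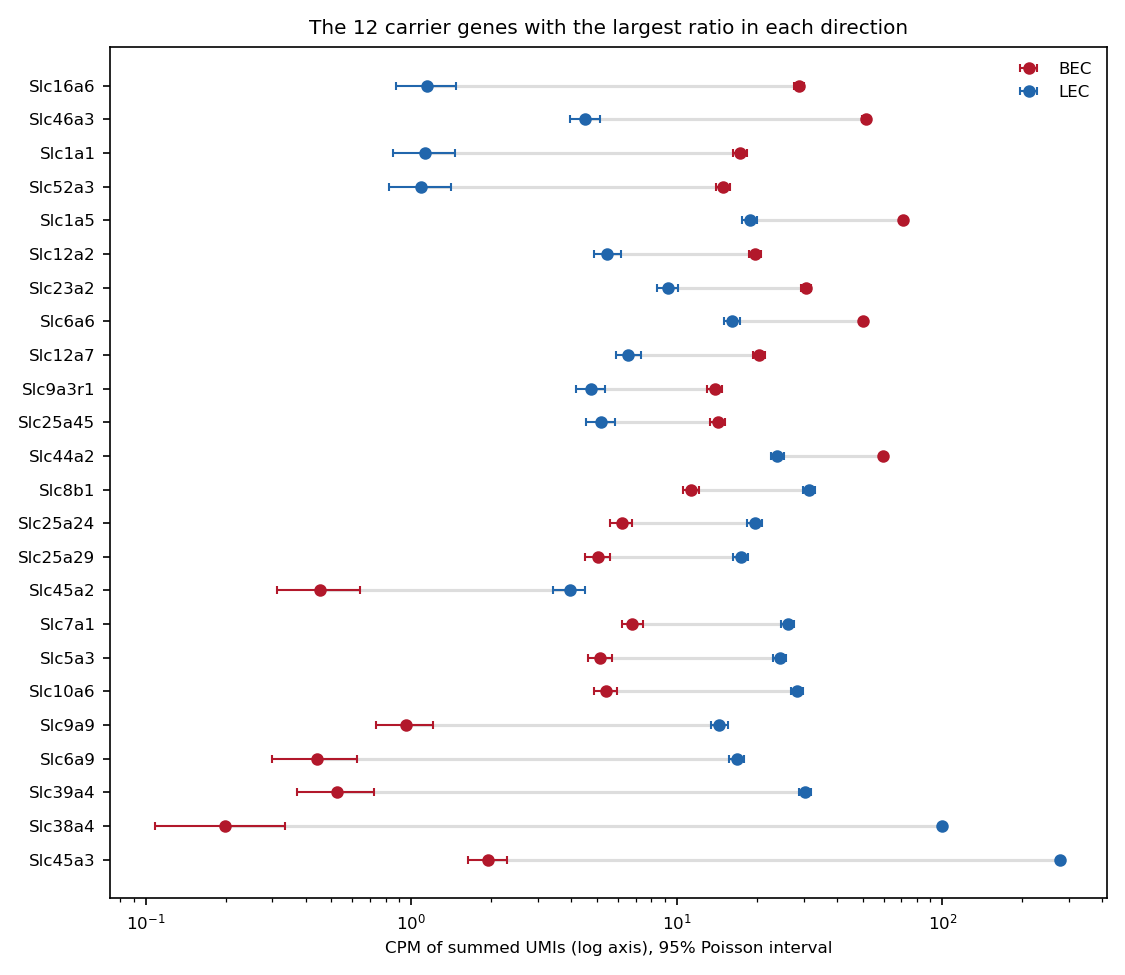
Level of the 12 members with the largest ratio in each direction in blood (BEC, red) and lymphatic (LEC, blue) endothelial cells, as CPM of summed UMIs on a log axis with 95% Poisson intervals. The pairs are farthest apart for Slc45a3 and Slc38a4 at the bottom and for Slc16a6 at the top, and no interval of a pair overlaps the other.

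Amino acid carriers went in both directions, with 3 of 11 higher in BEC and 3 higher in LEC. Of these, Slc38a4, Slc6a9 and Slc7a1 reached 10 CPM in LEC alone and Slc1a1 in BEC alone, so they tended to differ by construction. Slc1a5 and Slc6a6 reached it in both sorts. Nothing is read from the counts of this class. Slc38a4, a sodium-coupled carrier of neutral amino acids, was at 0.199 CPM in BEC (0.109 to 0.333, 14 UMIs) but 99.4 CPM in LEC (96.7 to 102), a ratio of 500 (298 to 915). In own-type BEC it had 3 UMIs, so that its BEC level was near the limit of counting. Slc6a9, the glycine transporter GlyT1, was at 0.440 CPM in BEC against 16.8 in LEC, and 27 of its 31 BEC UMIs came from cells outside the own-type subsets. Slc7a1, which imports the cationic amino acids arginine and lysine, was at 6.78 CPM in BEC against 26.1 in LEC, a ratio of 3.85 (3.47 to 4.28).

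In the other direction stood carriers of acidic amino acids, glutamine and taurine. Slc1a1, a high-affinity glutamate, aspartate and cysteine transporter, was at 17.3 CPM in BEC against 1.13 in LEC, a ratio of BEC over LEC of 15.4 (11.8 to 20.3). Slc1a5, which exchanges glutamine for other neutral amino acids, was at 70.9 and 18.8 CPM, a ratio of 3.78 (3.53 to 4.05). Slc6a6, the taurine transporter, was at 50.4 and 16.1 CPM, a ratio of 3.12 (2.90 to 3.37). The 2 amino acid members with the highest level stayed within 2-fold: Slc3a2, the heavy chain that carries several Slc7 light chains to the surface, at 389 CPM in BEC against 223 in LEC, and Slc38a2, an inducible sodium-coupled neutral amino acid carrier, at 127 and 190 CPM. Relatives within a family stood apart: Slc38a10 lay within 2-fold like Slc38a2, at 38.7 and 33.4 CPM, against the large difference of Slc38a4, and Slc6a6 and Slc6a9 went opposite ways.

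Of 6 carriers of vitamins and choline 4 were higher in BEC, against 8.51% of all genes, and the remaining 2, the choline carrier Slc44a1 and the riboflavin carrier Slc52a2, had log2 ratios of LEC over BEC of -0.81 and -0.91. The class median was -1.45. Of the 4, Slc46a3, Slc52a3 and Slc23a2 reached 10 CPM in BEC alone and so tended to differ by construction, while Slc44a2 reached it in both sorts. Nothing is read from the count or the median of this class. Slc46a3, a lysosomal member of the family of the proton-coupled folate transporter and grouped here by that family, was at 51.6 CPM in BEC (49.9 to 53.3) but 4.50 CPM in LEC (3.94 to 5.12), a ratio of BEC over LEC of 11.5 (10.0 to 13.1). Slc52a3, a riboflavin transporter, was at 14.9 and 1.09 CPM, a ratio of 13.7 (10.5 to 18.2). Slc23a2, the sodium-coupled vitamin C transporter SVCT2, was at 30.6 and 9.26 CPM, a ratio of 3.30 (2.99 to 3.65). Slc44a2, a choline transporter-like protein, was at 59.8 and 23.9 CPM, a ratio of 2.5 (2.34 to 2.66).

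Sugar and polyol carriers included the member with the largest log2 ratio on the scale of CPM + 1. Slc45a3, a proton-coupled sugar carrier known from prostate and oligodendrocytes, was at 1.94 CPM in BEC (137 UMIs) but 276 CPM in LEC (14244 UMIs), a ratio of 142 (120 to 169). Own-type BEC held only 18 of these 137 BEC UMIs, at 0.263 CPM, which put the ratio in own-type cells at 1115 (705 to 1882). After each cell was thinned to 5000 UMIs, 54.7% of LEC and 0.499% of BEC had a UMI of Slc45a3, and 65.1% and 0.873% did without thinning. Its relative Slc45a4 went the other way, at 28.4 CPM in BEC against 12.6 in LEC. Slc5a3, which takes up the osmolyte myo-inositol, was at 5.12 and 24.3 CPM, a ratio of LEC over BEC of 4.75 (4.22 to 5.36). Both Slc45a3 and Slc5a3 reached 10 CPM in LEC alone and so tended to differ by construction. Slc50a1, a small sugar carrier, lay within 2-fold at 105 and 68.5 CPM, as did the glucose transporter family member Slc2a8, at 18.6 and 25.9 CPM.

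Slc45a3 lies on chromosome 1, 114 kb from another member, Slc41a1 (19 CPM in LEC, 10.1 in BEC). Between members there were 4 such pairs of neighbours within 200 kb, and nothing about neighbours is read from so few. Slc39a4 and Slc52a2 lie 67.8 kb apart on chromosome 15 and had log2 ratios of 4.36 and -0.91. Slc35b2 and Slc29a1 lie 17.5 kb apart on chromosome 17, at -0.04 and -1.13. The copper carriers Slc31a2 and Slc31a1 lie 62.3 kb apart on chromosome 4 and had like ratios, 0.13 and 0.12.

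**Figure D2:**
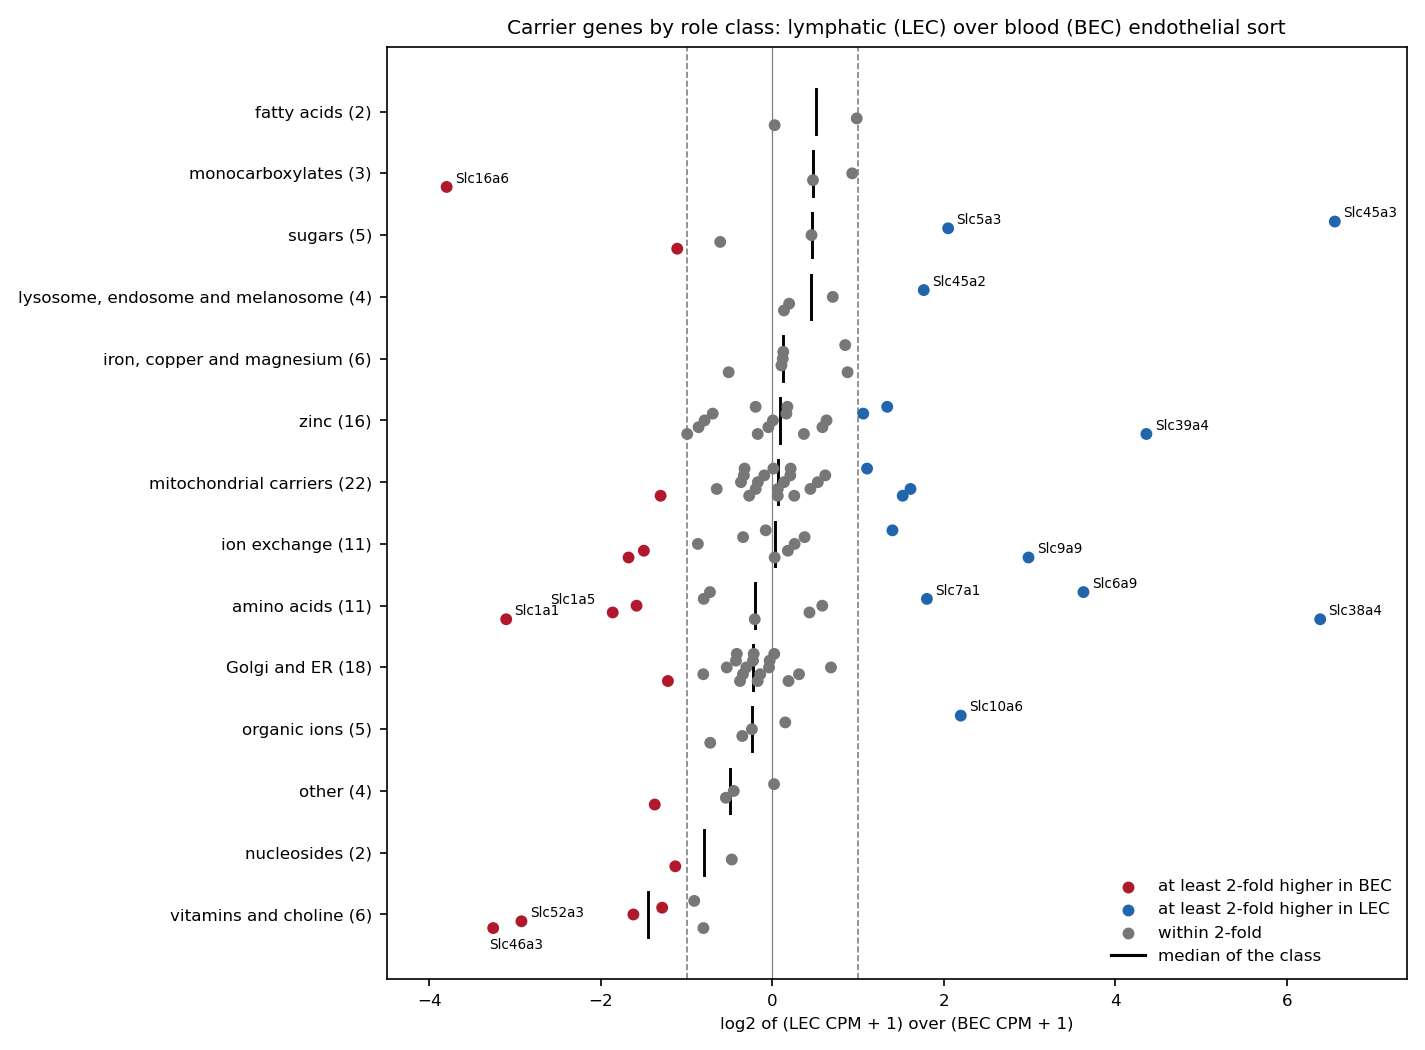
Log2 of (LEC CPM + 1) over (BEC CPM + 1) for all 115 members, 1 point each, in rows by role class with the class size in brackets; the black tick is the class median and dashed lines mark 2-fold. Vitamin and choline carriers lie to the left with a median of -1.45, while amino acid and sugar carriers spread to both sides. Slc46a3, Slc52a3 and Slc23a2 of the vitamin and choline class are members through their level in BEC alone, as is the amino acid carrier Slc1a1. Slc38a4, Slc6a9, Slc7a1, Slc45a3 and Slc5a3 of the amino acid and sugar classes are members through LEC alone.

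Monocarboxylate carriers numbered 3, of which Slc16a6 reached 10 CPM in BEC alone and so tended to differ by construction. Slc16a6, a monocarboxylate transporter of the MCT family known as a ketone body carrier in liver, was at 28.9 CPM in BEC against 1.15 in LEC, a ratio of BEC over LEC of 25.2 (19.5 to 33.2), the largest of the members higher in BEC. Its annotated exons share 93 of its last 1000 bases with Amz2 on the opposite strand, a gene that was at 30.9 CPM in BEC against 44.8 in LEC, within 2-fold. The part of Amz2 reads in the counts of Slc16a6 was not tested. Slc16a3, the lactate exporter MCT4 and a well-known hypoxia target, was at 32.1 CPM in BEC against 62.0 in LEC, a ratio of LEC over BEC of 1.93 (1.83 to 2.04) and a log2 ratio of 0.93, just within 2-fold. It was past 2-fold with the pigmented cells included, at a log2 of 1.25, and by the mean of per-cell CPM, at 1.04. The nucleoside carrier Slc29a1 (ENT1), which takes up adenosine, had the highest mean of the sorts among the 30 members past 2-fold, at 351 CPM in BEC against 160 in LEC, and Slc43a3, a purine base carrier, lay within 2-fold at 146 and 105 CPM.

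Zinc carriers numbered 16, of which 3 were higher in LEC and 0 in BEC. All 3 were importers of the Slc39 (ZIP) family, which raise cytosolic zinc. Slc39a4 and Slc39a9 reached 10 CPM in LEC alone, and Slc39a14 in both sorts. Slc39a4 was at 0.525 CPM in BEC (37 UMIs) and 30.3 CPM in LEC, a ratio of 57.8 (41.7 to 82.4), and 129 (80.2 to 222) in own-type cells. Slc39a14, which also imports iron and manganese, was at 13.2 and 34.8 CPM, and Slc39a9 at 8.33 and 18.4 CPM. Slc39a1 and Slc39a7, the highest of the class, lay within 2-fold at 56.3 and 87.7 CPM and at 88.5 and 54.2 CPM. Of the Slc30 exporters, Slc30a1 was at 13.7 CPM in BEC against 6.39 in LEC, a log2 ratio of -0.99. The other Slc30 members lay on both sides, from -0.20 for Slc30a6 to 0.58 for Slc30a4. Among importers within 2-fold, Slc39a11 and Slc39a13 were at -0.86 and -0.79, and Slc39a3 was at 0.37. The zinc-binding metallothioneins Mt1 and Mt2 and the zinc-sensing factor Mtf1 all lay within 2-fold, with Mt1 at 108 CPM in BEC against 160 in LEC.

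Carriers of iron, copper and magnesium lay within 2-fold, all 6 of them, as did 80.6% of all genes. Slc31a2 was at 149 CPM in BEC against 163 in LEC, and Slc31a1, the copper importer CTR1, at 57.8 and 62.9 CPM. Of 4 measured genes of the iron handling list, 2 were higher in LEC: the ferritin heavy chain Fth1, at 2062 and 12275 CPM, and the ferroxidase ceruloplasmin, Cp, at 4.19 and 338 CPM. The light chain Ftl1 lay within 2-fold at 2448 and 2900 CPM. The ferrous iron importer Slc11a2 (DMT1), a member, was at 13.6 and 14.7 CPM, with an interval of the ratio of LEC over BEC from 0.981 to 1.19.

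Ion exchangers showed 2 of 11 members higher in each sort. Of these, Slc12a7 reached 10 CPM in BEC alone and Slc9a9 in LEC alone, so both tended to differ by construction. Slc12a2, the sodium, potassium and chloride cotransporter NKCC1, was at 19.7 CPM in BEC against 5.47 in LEC, and Slc12a7, a potassium and chloride cotransporter, at 20.4 and 6.56 CPM. Slc9a9, an endosomal sodium and proton exchanger, was at 0.951 CPM in BEC against 14.5 in LEC, a ratio of 15.2 (11.8 to 19.8). Slc8b1, the mitochondrial sodium and calcium exchanger NCLX, was at 11.3 and 31.4 CPM. The highest of the class, the phosphate importer Slc20a1 and the potassium and chloride cotransporter Slc12a4, lay within 2-fold at 46.4 and 36.4 CPM and at 33.0 and 17.6 CPM. Of 5 measured pump genes that build the gradients these carriers use, the sodium pump subunit Atp1b3 was higher in BEC, at 277 and 107 CPM.

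Mitochondrial carriers of the Slc25 family were the largest class, with 18 of 22 within 2-fold, a share near the 80.6% of all genes. The adenine nucleotide translocators Slc25a5 and Slc25a4, which exchange ATP for ADP, had the highest levels of all 115 members by the mean of the sorts, at 1035 and 826 CPM and at 672 and 914 CPM in BEC and LEC. Slc25a29, which carries basic amino acids, was at 5.02 and 17.4 CPM, the calcium-regulated ATP and phosphate carrier Slc25a24 at 6.19 and 19.6 CPM, and Slc25a35 at 4.34 and 10.5 CPM. Slc25a45 was higher in BEC, at 14.2 and 5.16 CPM. All 4 of these had low levels next to the translocators, and each reached 10 CPM in 1 sort alone, so they tended to differ by construction. The mitochondrial pyruvate carriers Mpc1 and Mpc2, which bear no Slc symbol, lay within 2-fold, Mpc1 at 176 and 197 CPM.

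The remaining classes differed in single members. Nucleotide sugar and other carriers of the Golgi and endoplasmic reticulum lay within 2-fold in 17 of 18 cases, against 80.6% of all genes. Slc35b1, which brings ATP into the endoplasmic reticulum, was at 130 CPM in BEC against 96.6 in LEC, and Slc35a4 at 52.8 and 45.0 CPM. The exception was Slc35c2, a gene linked to fucose supply, at 21.8 and 8.79 CPM. Among organic ion carriers Slc10a6, which takes up sulphated steroids, was at 5.39 and 28.3 CPM, a ratio of LEC over BEC of 5.25 (4.68 to 5.89), and Slc10a3 lay within 2-fold. Slc10a6 reached 10 CPM in LEC alone. The fatty acid transport protein Slc27a4 was at 9.16 and 9.34 CPM. Among symbols that start with Slc but name no carrier, the scaffold protein Slc9a3r2 (NHERF2) was at 488 and 335 CPM and its relative Slc9a3r1 (NHERF1) at 13.9 and 4.74 CPM. Slc4a1ap was at 25.8 and 18.6 CPM. Slc9a3r1, Slc6a6 and Slc12a2 were also present in the pigmented cells of the LEC sort, at 49.7, 87.6 and 80.3 CPM, and with those cells included their log2 ratios were -0.39, -0.96 and -0.38, no longer past 2-fold.

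Transporters of the Abc, Slco and Mfsd families that are known from the blood-brain barrier, none of them a member, were 2-fold or more above LEC in BEC in 5 of 8 measured cases and higher in LEC in 1, against 8.51% and 10.9% of all genes. The efflux pump Abcg2 was at 193 CPM in BEC against 88 in LEC, and the prostaglandin transporter Slco2a1 at 183 and 26.7 CPM. Abcc4, Abcb1a and Abcg1 were also higher in BEC, while Slco3a1 was at 47.5 and 191 CPM. Mfsd2a and Slco1a4, which mark brain endothelium, had no UMI in either sort. Of the chaperones, Bsg (CD147), which brings monocarboxylate transporters to the surface, was at 726 and 971 CPM, within 2-fold. Of 10 measured genes of the amino acid deprivation response 3 were higher in LEC, against 10.9% of all genes, and of these Nupr1 was at 15.5 CPM in BEC against 491 in LEC. The 2 highest of this list were Nupr1 and Atf4, the latter at 159 and 154 CPM. Of 8 genes of glutathione and Nrf2 targets, 2 were higher in LEC, against the same share, Hmox1 at 31.0 and 108 CPM and Nqo1 at 9.35 and 119 CPM. Of 9 measured hypoxia genes 5 were higher in LEC, again against 10.9%, among them Ndrg1 at 156 and 350 CPM. Higd1a lay just within 2-fold at 193 and 379 CPM. Another of the 5, Car9, was at only 1.82 and 4.74 CPM, and reached 10 CPM only with the pigmented cells counted. In own-type cells the log2 ratio of Car9 was 0.71, within 2-fold.

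Each sort was then divided into subsets by clustering its cells without any Slc gene, so that the carriers did not draw the clusters. Of 11 clusters in each sort, 9 passed as own-type, and each is named here by its leading genes. Each subset was compared with the other own-type cells of its sort, again as a description of 1 pooled sample. In BEC, 21 of 105 members (20%) stood 2-fold or more above the other cells in at least 1 subset, against 20.3% of 8830 genes. In LEC it was 23 of 107 (21.5%), against 23.7% of 9340 genes. These shares rest on unlike filters. Members had to reach 10 CPM over all cells of either sort, while the background took any gene at 10 CPM in a subset or its rest. Genes high in 1 small subset alone could thus enter the background and not the members. Nothing is read from these shares, and the same limit holds for the counts per subset below. Of 99 members measured in both sorts, 8 were higher in a subset of each: Slc16a3, Slc6a6, Slc7a1, Slc5a3, Slc39a14, Slc30a4, Slc25a10 and Slc9a3r1.

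**Figure D3:**
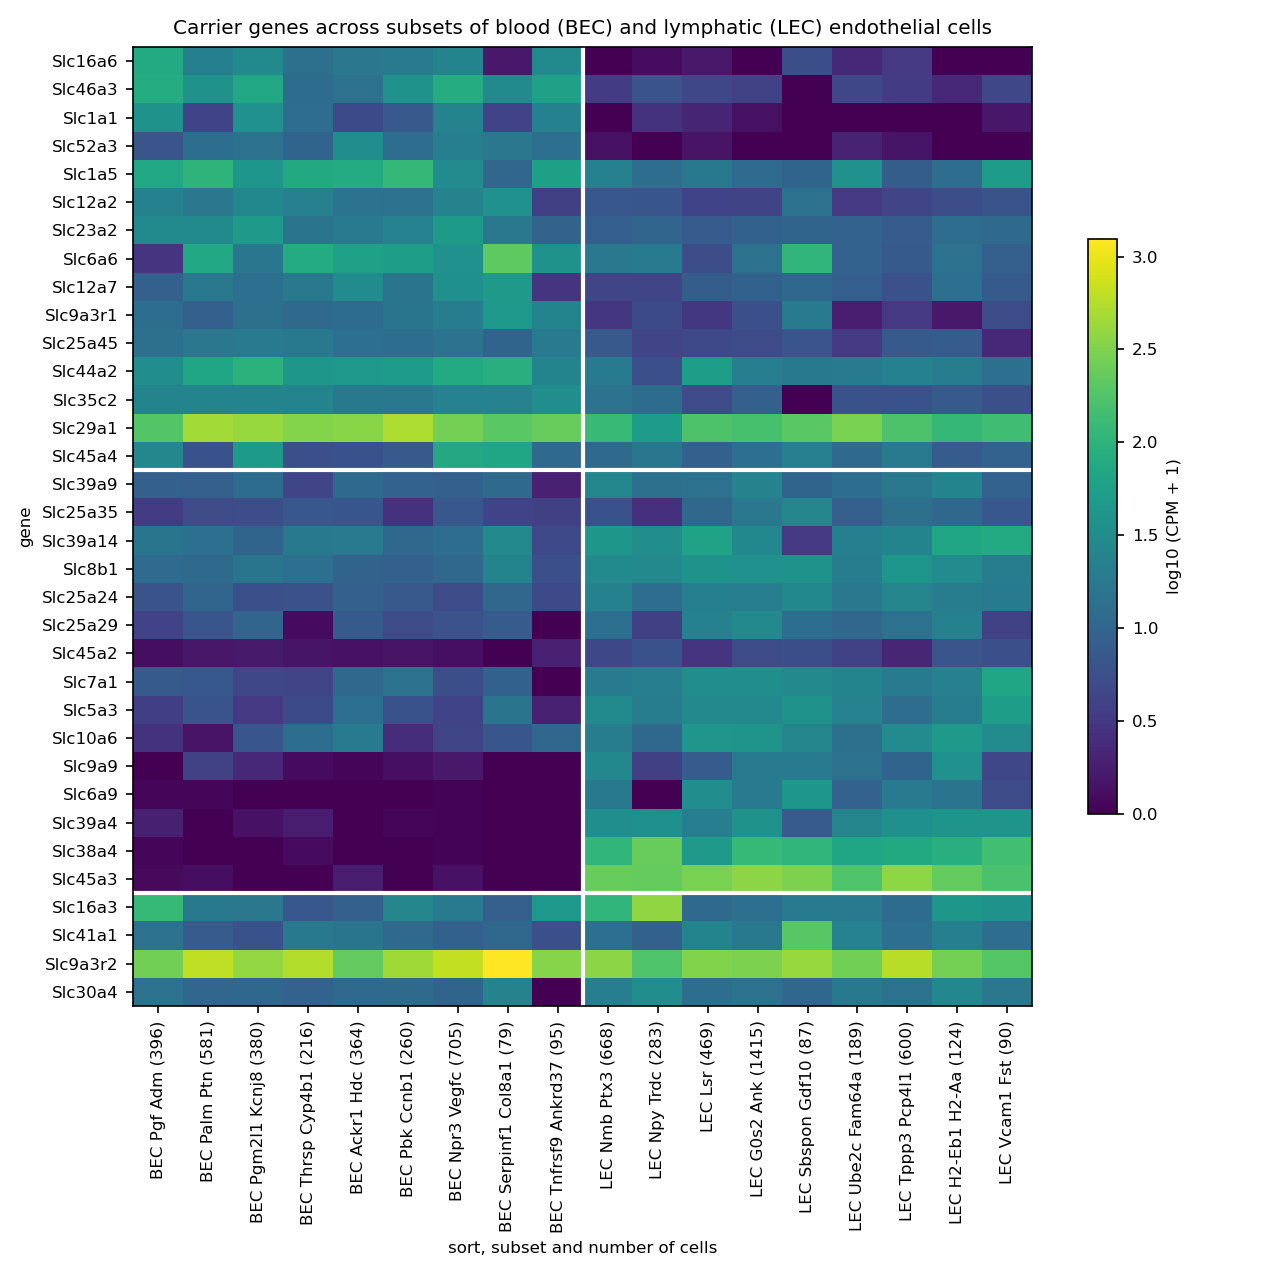
Level of the 30 members at least 2-fold apart between the sorts and of 4 further members (rows) in the 9 BEC and 9 LEC subsets (columns, with cell numbers), coloured by log10 of (CPM + 1). The rows of Slc6a9, Slc38a4 and Slc45a3 are dark, below 1 CPM, in all 9 BEC subsets, while Slc16a3, Slc6a6 and Slc41a1 are bright in single columns.

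In BEC the subset led by Pgf and Adm, known from tip cells and hypoxia, held 396 cells. It had 4 of 8 measured hypoxia genes at least 2-fold higher than the rest. Adm and Ankrd37 of that list are among the leading genes of the subset, so the count is in part set by how the subset was found. Of 96 members 3 were higher, against 2.57% of genes, and 2 of these were monocarboxylate carriers. Slc16a3 was at 118 CPM (112 to 125) against 16.5 CPM in the rest, a ratio of 7.15 (6.57 to 7.79), and Slc16a6 at 76.9 CPM against 20.6 CPM, a ratio of 3.73 (3.40 to 4.08). The glutamate carrier Slc1a1 was at 38.4 CPM against 13.8 CPM, and it was also higher in the subset led by Pgm2l1 and Kcnj8, at 35.7 CPM, though within 2-fold there with 20 components, at a log2 of 0.95, and by the mean of per-cell CPM. The taurine carrier Slc6a6 was at its lowest among BEC subsets here, at 1.93 CPM against 54.8 CPM in the rest, a ratio of rest over subset of 28.4 (18.3 to 46.5). Slc29a1 was lower as well, at 183 CPM against 387 CPM.

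The subset led by Serpinf1 and Col8a1 (79 cells), with the arterial genes Gja5 and Bmx among its leading genes, showed the reverse for Slc6a6, Slc16a3 and Slc16a6. Of 98 members 11 were higher (11.2%), against 6.88% of genes. Slc6a6 was at 213 CPM (190 to 237) against 42.9 CPM in the rest, a ratio of 4.95 (4.41 to 5.55). The scaffolds Slc9a3r2 and Slc9a3r1 were at 1246 CPM against 471 CPM and at 43.1 CPM against 13.3 CPM, and Slc45a4 was at 65.4 CPM against 27.9 CPM. Slc16a6 had 1 UMI in these cells, at 0.634 CPM, and Slc16a3 was at 7.61 CPM. Slc1a5 was at 9.52 CPM against 71.8 CPM, a ratio of rest over subset of 7.54 (4.57 to 13.5). The larger subset led by Npr3 and Vegfc (705 cells) had 2 members higher, against 1.30% of genes: Slc45a4, at 73.1 CPM (68.7 to 77.6) against 17.0 CPM, and Slc12a7, at 34.3 CPM against 16.6 CPM. The log2 value of Slc12a7, 1.01, was 0.95 without cycling cells and 0.97 by the mean of per-cell CPM, and without cycling cells Slc45a4 in the cells led by Serpinf1 was at 0.97, all within 2-fold. Slc45a4 reached its highest levels in these 2 subsets, was at 47.9 CPM in the subset led by Pgm2l1 and Kcnj8, and lay between 4.64 and 6.29 CPM in 4 others.

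The subset led by Ackr1 and Hdc, with the venous genes Sele and Selp (364 cells), had 3 members higher, against 5.46% of genes. The riboflavin carrier Slc52a3 was at 31.8 CPM against 13.0 CPM, Slc10a6 at 18.0 CPM against 3.26 CPM and Slc5a3 at 12.6 CPM against 4.03 CPM. Slc10a6 and Slc5a3 were among the members higher in LEC, and within BEC Slc10a6 was highest in this subset, while Slc5a3 was at 14.6 CPM in that led by Serpinf1 and Col8a1. In the subset led by Thrsp and Cyp4b1 (216 cells) Slc10a6 was at 12 CPM against 4.45 CPM. Slc46a3 was low in both of these subsets, at 13.5 and 11.5 CPM, against 82.3 CPM in the subset led by Pgf and Adm.

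In LEC the subset led by Npy and Trdc (283 cells), which had 9 of 10 measured hypoxia genes at least 2-fold higher than the rest, stood out for Slc16a3. It was at 379 CPM (359 to 399) against 32.2 CPM, a ratio of 11.7 (10.9 to 12.7), and after thinning 59.0% of these cells had a UMI of it, against 2.77% of the cells led by Lsr. The subset led by Nmb and Ptx3 (668 cells) followed at 107 CPM against 49.9 CPM in the rest. At a clustering resolution of 1 the cluster that best matched this second subset had less Slc16a3 than the rest, at a log2 of -0.82, and it was within 2-fold with 20 components, at 0.77, and without cycling cells, at 0.99. In the other 7 subsets Slc16a3 lay between 10.5 and 42.4 CPM. In the cells led by Npy and Trdc, 3 of 97 members were higher in all, against 6.21% of genes: Slc16a3, Slc38a4, at 235 CPM against 94.6 CPM, and the zinc carrier Slc30a4, at 31.9 CPM against 15.3 CPM, which was within 2-fold at resolution 1 and by the mean of per-cell CPM, at a log2 of 0.99. A larger number, 16, were lower, against 12.2% of genes. Among these Slc6a9 had no UMI, against 18.7 CPM in the rest, which makes it at least 23.6-fold lower at 3 counts over the subset. Slc29a1 was at 49.0 CPM against 164 CPM and the adenine nucleotide translocator Slc25a5 at 380 CPM against 864 CPM.

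**Figure D4:**
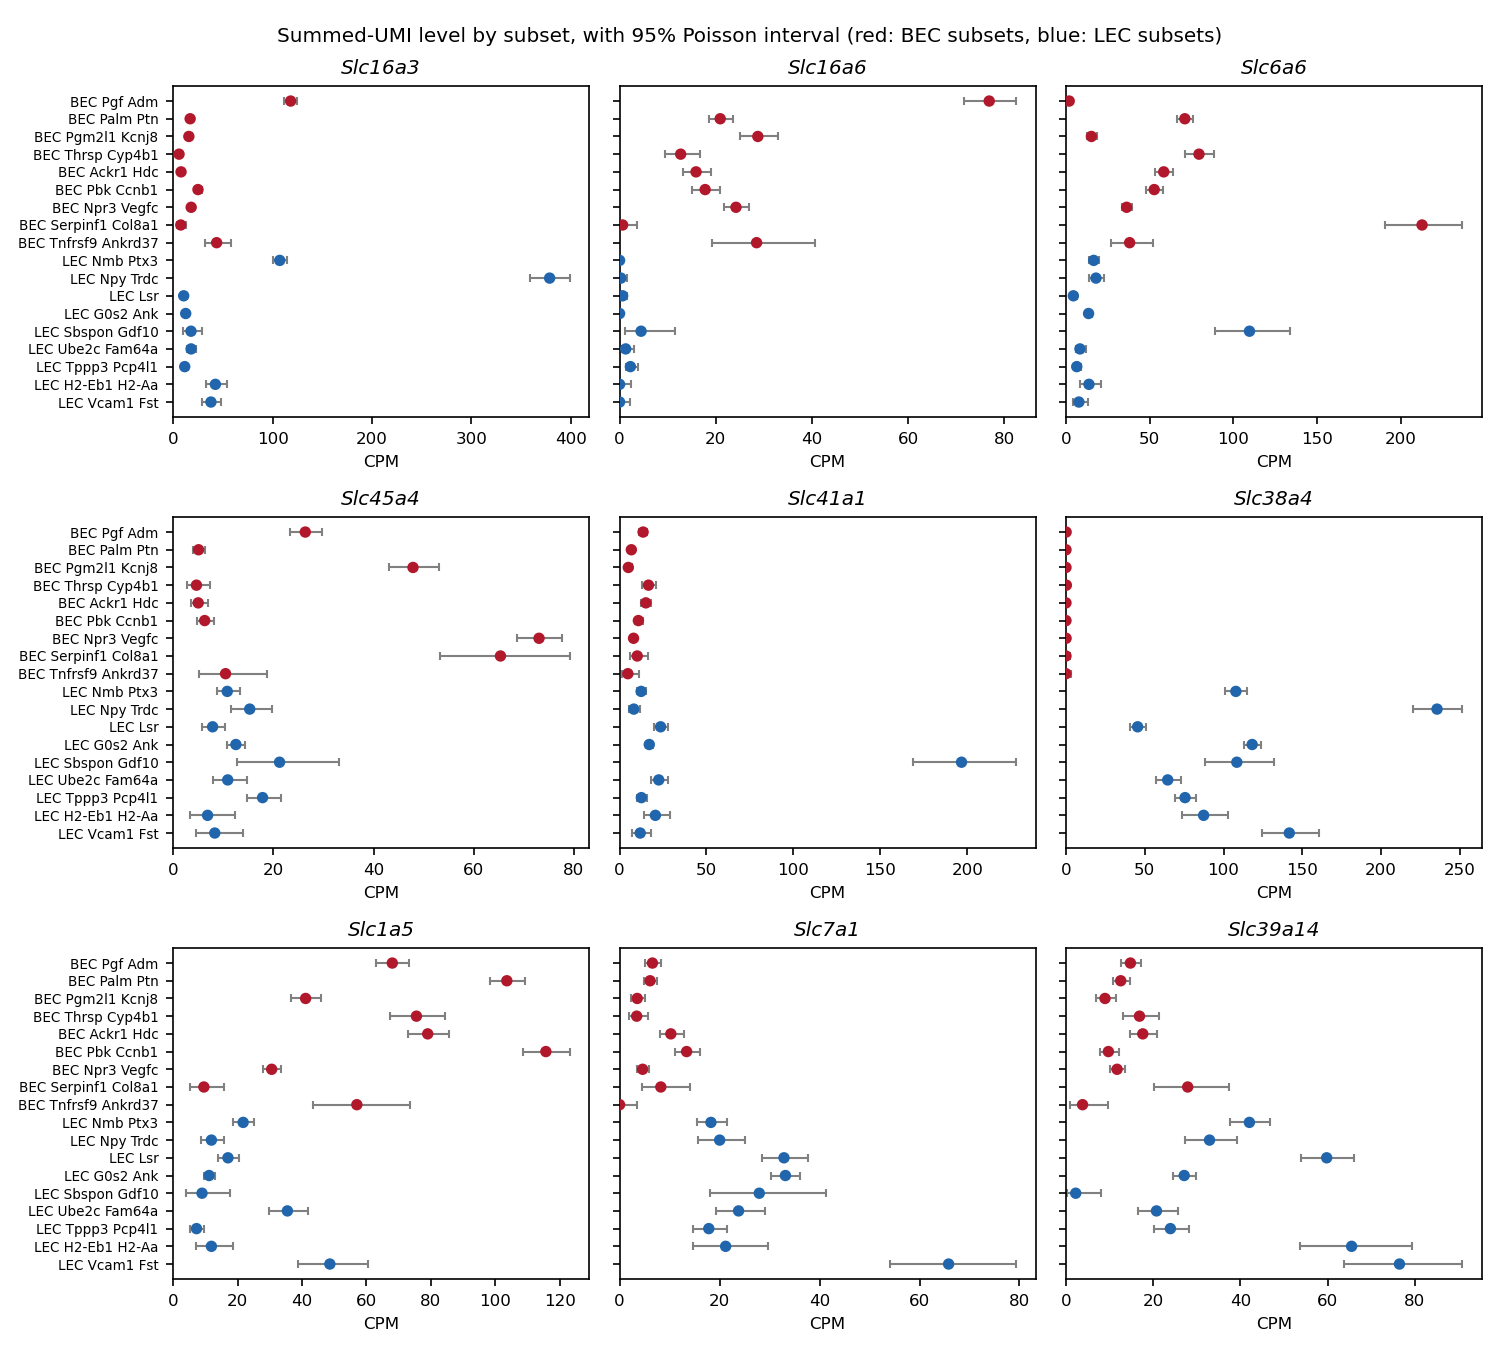
CPM of summed UMIs of 9 members in each BEC (red) and LEC (blue) subset, with 95% Poisson intervals, each panel on its own linear axis from 0. Slc16a3 is highest in the subset led by Npy and Trdc (379 CPM) and in that led by Pgf and Adm among BEC (118 CPM), and Slc6a6 in that led by Serpinf1 and Col8a1 (213 CPM).

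The subset led by Sbspon and Gdf10 (87 cells) was small and mixed, and was the 1 subset with high Slc41a1. Slc41a1, a magnesium transporter, was at 197 CPM (169 to 228) against 16.2 CPM, a ratio of 12.1 (10.2 to 14.3), and Slc6a6 was at 110 CPM against 11.6 CPM, a ratio of 9.45 (7.54 to 11.7). In all 11 of 99 members were higher, against 4.64% of genes, Slc6a9 and Slc10a3 among them at 41.4 and 34.7 CPM. Of its cells 45 had under 1% mitochondrial UMIs and 42 had 1% or more, a split made after the values had been seen. In the 42 cells Slc41a1 was at 297 CPM, 18.3-fold the rest (15.4 to 21.6), Slc6a6 was at 167 CPM, and the marker genes Sbspon, Gdf10 and Cldn11 summed to 1414 CPM. In the 45 cells of low mitochondrial share Slc41a1 was at 12.7 CPM, Slc6a6 at 3.17 CPM, and the markers summed to 50.7 CPM. The high values of both carriers were thus in the 42 cells. Clustered with another seed, at resolution 1 or with 20 components, the best-matching cluster had less of both than the rest, with a log2 of -0.57 to -0.59 for Slc41a1 and -1.77 to -1.80 for Slc6a6. The cluster highest in Sbspon, Gdf10 and Cldn11 under those settings was larger, with 732, 578 and 961 cells, and had log2 values of 1.52, 1.64 and 1.24 for Slc41a1 and of 1.30, 1.60 and 0.98 for Slc6a6. Slc6a9 and Slc10a3 were within 2-fold in these larger clusters, at 0.29 to 0.45 and at 0.07 to 0.20.

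Slc6a6 and Slc16a3 were high in different subsets of both sorts. Slc6a6 was highest in the arterial-marker subset of BEC (213 CPM) and the Gdf10 subset of LEC (110 CPM). Slc16a3 was low in both, at 7.61 and 17.9 CPM, and highest in the subsets with the most hypoxia genes higher. Hypoxia genes were not left out of the clustering, so their counts are in part set by how the subsets were found. Whether hypoxia sets the level of Slc16a3 in these cells was not tested.

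The LEC subset led by Vcam1 and Fst, with the chemokine gene Ccl2 among its leading genes (90 cells), had 4 of 98 members higher, against 4.66% of genes. They were 2 amino acid carriers, Slc7a1 at 65.8 CPM (54.1 to 79.3) against 26.1 CPM and Slc1a5 at 48.6 CPM against 15.4 CPM, the zinc and iron importer Slc39a14 at 76.5 CPM against 34.6 CPM and the myo-inositol carrier Slc5a3 at 52.8 CPM against 24.7 CPM. Of 14 members that were lower, against 11.1% of genes, the copper carrier Slc31a2 was at 26.7 CPM (19.5 to 35.7) against 172 CPM, a ratio of rest over subset of 6.46 (4.82 to 8.86). Under another seed Slc39a14 and Slc5a3 in the matching cluster were within 2-fold, at log2 values of 0.30 and 0.65, and Slc7a1 was at 0.97. Slc5a3 was also within 2-fold with 20 components, at 0.98, and with Slc genes among the clustering genes, at 0.91, as was Slc39a14 in the latter, at 0.79. The subset led by Lsr (469 cells) had 2 members higher, against 1.90% of genes, Slc44a2 at 53.0 CPM against 17.9 CPM and Slc6a9 at 32.1 CPM against 14.9 CPM. Under another seed Slc6a9 was at a log2 of 0.80 there, and at 0.93 to 0.98 at resolution 1, without cycling cells and by the mean of per-cell CPM. Slc9a9 was highest in the subset led by H2-Eb1 and H2-Aa, at 36.2 CPM, and Slc25a29 in that led by G0s2 and Ank, at 29.7 CPM. The log2 value of Slc9a9 there, 1.26, was 0.85 under another seed and 0.93 with 20 components, both within 2-fold.

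Slc25a10 was the 1 carrier at least 2-fold higher in the cycling cells of both sorts. This mitochondrial dicarboxylate carrier was at 29.0 CPM against 8.40 CPM in the BEC subset led by Pbk and Ccnb1 (260 cells), and at 31.6 CPM against 8.22 CPM in the LEC subset led by Ube2c and Fam64a (189 cells). In these BEC 2 of 95 members were higher, against 7.07% of genes, the other being Slc7a1. In these LEC it was 3 of 97, against 7.08% of genes, with Slc1a5 at 35.4 CPM against 14.9 CPM and Slc29a1 at 294 CPM against 142 CPM. Both were just within 2-fold with 20 components, as was Slc29a1 by the mean of per-cell CPM, at a log2 of 0.98. Slc1a5 and Slc29a1 also had their highest BEC levels in cycling cells, at 116 and 521 CPM, though less than 2-fold above the rest.

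One BEC subset, led by Tnfrsf9 and Ankrd37 (95 cells), had a median of 0.0621% mitochondrial UMIs and a median of 9650 UMIs per cell. Of 96 members 26 were lower there, against 22.2% of genes. Slc38a2 was at 30.4 CPM against 126 CPM. The mitochondrial carriers Slc25a10, Slc25a25, Slc25a36 and Slc8b1 were among the lower ones, while Slc25a5 and Slc25a4 were not. The part of RNA quality in these values was not tested. Without the subsets of low mitochondrial share, 16 members were higher in BEC and 15 in LEC.

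The melanosomal carriers Slc45a2 and Slc24a5, which serve pigment formation in melanocytes, were both high in melanoma cells. Without pigmented cells Slc45a2 was below 10 CPM in both sorts, and the fatty acid carriers Slc27a1 and Slc27a4 were among the other members below it. In the 279 pigmented cells of the LEC sort Slc45a2 was at 391 CPM (377 to 405) and Slc24a5 at 161 CPM (152 to 170). Among own-type LEC, Slc45a2 was at 2.51 CPM (1.88 to 3.28) in cells with no pigment UMI, 3.37 CPM (2.65 to 4.23) in cells with 1 to 4, an overlapping interval, and 8.20 CPM (5.80 to 11.2) in cells with 5 to 19. In own-type BEC with no pigment UMI it was at 0.355 CPM. Its log2 ratio between the sorts, 1.76, stood beside a melanocytic marker sum of 144 CPM in LEC and 26.2 in BEC, and the part of melanoma RNA in it was not tested. Slc24a5 did not follow the pigment UMIs, at 19.7 CPM (17.8 to 21.7), 17.2 and 12.3 CPM (9.31 to 15.9) in the same classes, and at 10.8 CPM in own-type BEC with no pigment UMI.

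Slc24a5 (chromosome 2, 125068124 to 125088677, GRCm38) shares 714 of its last 1000 bases with exons of Myef2, a protein-coding gene on the opposite strand. Myef2 was at 17.4 CPM in BEC against 28.4 in LEC, a log2 ratio of 0.68, close to the 0.70 of Slc24a5 (10.6 and 17.9 CPM). In pigmented cells the 2 parted, with Myef2 at 24.9 CPM. The sources used here do not say whether counting used strand. Whether reads of the 2 genes were kept apart in the shared stretch is thus not known here. The part of Myef2 reads in the endothelial level of Slc24a5 was not tested, and that level is uncertain. Such sharing with a coding gene within the last 1000 bases touched 6 of the 115 members, all on the opposite strand.

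**Figure D5:**
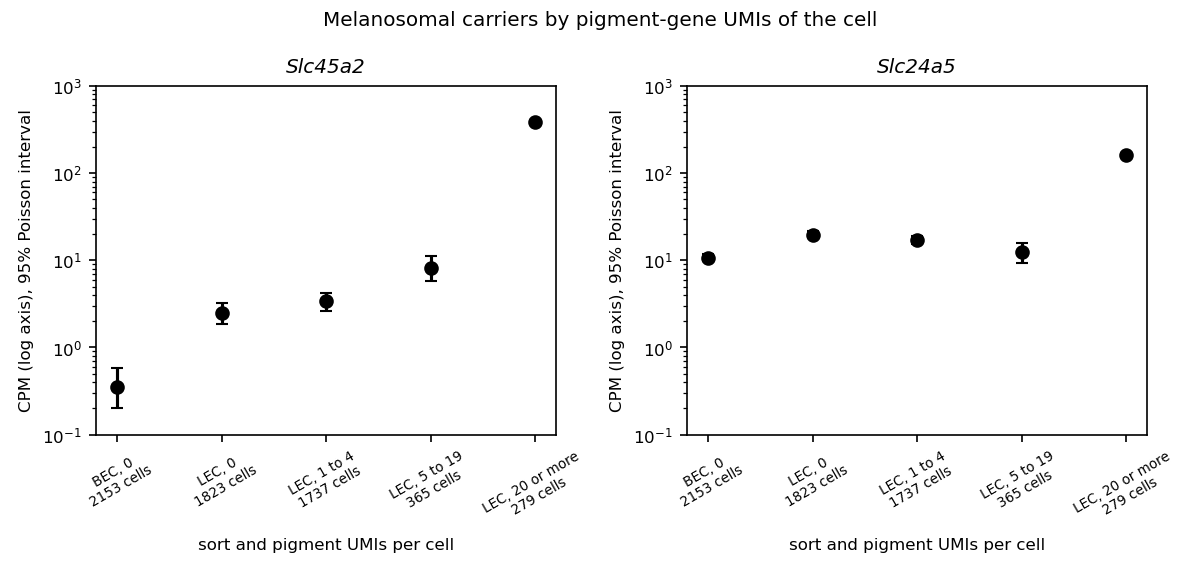
Level of Slc45a2 and Slc24a5 (CPM on a log axis, 95% Poisson intervals) in own-type BEC with no pigment UMI, in own-type LEC with 0, 1 to 4 and 5 to 19 pigment UMIs, and in the LEC sort's cells with 20 or more. In the LEC sort Slc45a2 goes from 2.51 to 391 CPM, with overlapping intervals in the classes of 0 and of 1 to 4, while Slc24a5 stays between 12.3 and 19.7 CPM below 20 pigment UMIs.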

How the data were processed

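The authors deposited a matrix of UMI counts per gene and cell, made with Cell Ranger 2.1.1 on mm10 per the submitters' processing notes. Their cell filter, doublet handling and use of strand are not given in the sources used here, and no doublets were removed here. Tumours from 10 mice were pooled, and cell names carry the sort (3228 BEC, 4407 LEC) but no library, so each sort was 1 sample, cells were not treated as replicates, and no test was run.

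UMIs were summed over cells with under 20 UMIs of Dct, Tyrp1, Pmel and Tyr and divided by the summed total (CPM). Intervals at 95% are exact Poisson for a level, exact conditional binomial for a ratio and Clopper-Pearson for a share, and a count of 3 UMIs was the floor (0.0426 CPM in BEC, 0.0582 in LEC). A difference was called at 2-fold or more after adding 1 CPM, among genes at 10 CPM or more in either group compared (for the sorts, over all cells). For shares, cells were thinned to 5000 UMIs. Cells were clustered per sort without Slc genes (2000 variable genes, 30 principal components, 15 neighbours, Leiden resolution 0.6) with scanpy 1.11.5, scikit-learn 1.9.0 and python-igraph 0.11.9 in Python 3.11.15, with numpy 2.4.6, scipy 1.17.1 and pandas 2.3.3. Own-type clusters, by limits set after the marker sums were seen, had a sum of their lineage markers at least 2 times the other's, under 2000 CPM of mural and fibroblast markers and at least 2000 CPM of pan-endothelial markers. The calls and intervals were run on simulated Poisson counts with set folds. Those counts hold no variation between cells, libraries or mice, so this checks the computation alone.

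The members and lists were chosen with earlier results of these data known. Named members were the 12 largest ratios in each direction, the 2 highest of each role class and up to 4 per subset at 20 CPM or more. Of each list the 2 highest genes were named. All other genes with values, among them the overlapping genes, the lower calls in subsets and list genes past 2-fold, were named after their values were seen. Some genes, 1 member among them, are not reported here.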

Additional observations from a re-analysis of the deposited data

Results flagged for a closer look

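The pigmented cells of the LEC sort, 279 cells with 20 or more pigment UMIs that the comparisons leave out, held carriers at more than 4-fold their level in the LEC described above. Slc45a2 was at 391 CPM and Slc24a5, the other melanosomal carrier, at 161 CPM. The taurine carrier Slc6a6 was at 87.6 CPM and the chloride cotransporter Slc12a2 at 80.3 CPM. The fatty acid transport protein Slc27a1 was at 56.2 CPM and the scaffold Slc9a3r1 at 49.7 CPM. These cells had a median of 27894 UMIs, against 10594.5 in the other LEC.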

How the results depend on the processing

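No paired analysis was possible because cell names carry no library number, and for the same reason no replicate could be left out. The median log2 ratio of the members was -0.15 with median-of-ratios size factors, which shifted all genes by -0.11, and -0.21 with a minimum of 20 CPM. The 15 members higher in BEC became 26 with no minimum level and 28 at 1.5-fold. The 15 higher in LEC became 9 with a minimum of 20 CPM, 29 with no minimum and 23 at 1.5-fold. Members higher in at least 1 subset became 46 (from 21) in BEC and 55 (from 23) in LEC at 1.5-fold. The changes in these counts follow from the thresholds. Among named members, the log2 ratio of Slc27a4 between the sorts changed sign, from 0.03 to -0.07 with size factors, and no other did under the alternatives run. With 5 CPM added, Slc25a45, Slc45a2 and Slc9a3r1 were within 2-fold, at -0.92, 0.71 and -0.95. In subsets, 10 values changed sign. In the best match of the Sbspon and Gdf10 subset, Slc41a1 was at -0.57 with another seed and -0.59 at resolution 1 and with 20 components, Slc6a6 at -1.77, -1.80 and -1.80, and Slc6a9 at -0.39, -0.41 and -0.41. Slc16a3 in the best match of the Nmb and Ptx3 subset was at -0.82 at resolution 1. Overlap is given here as shared cells over all cells of the 2 clusters. It was 0.506, 0.517 and 0.517 for the matches of the Sbspon and Gdf10 subset, and 0.391 for that of the Nmb and Ptx3 subset. Some other subsets matched less well. Overlap was 0.305 for the Thrsp and Cyp4b1 subset with Slc genes among the clustering genes, and 0.352 for the G0s2 and Ank subset at resolution 1. The 45 cells of the Sbspon and Gdf10 subset under 1% mitochondrial UMIs had Slc41a1 at 12.7 CPM and Slc6a6 at 3.17 CPM. The cause of the sign changes was not tested. Leaving out subsets of low mitochondrial share, and following the cluster highest in Sbspon, Gdf10 and Cldn11, were chosen after seeing the data. Depth limits genes near the floor, such as Slc38a4 in BEC.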
